A study of Cricetiscus sungorus with 24 samples.

Results

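Ptgds, the gene of prostaglandin D synthase, and 9 other genes of prostaglandin synthesis, breakdown and response were followed in kidney RNA of Djungarian hamsters. The 10 genes were Ptgs1, Ptgs2, Ptgds, Hpgds, Ptges, Ptges2, Ptges3, Hpgd, Ptgr1 and Ptger3. They were selected by name, and Ptgds was singled out because its reads in males lay mostly in 1 group, SP28wk. The table of experiment 1 listed 6 of the 10 among 9681 genes, and the table of experiment 2 listed all 10 among 15842 genes.

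Experiment 1 held 12 adult males, 4 kept under a long photoperiod of 16 h of light per day (LP), 4 after 12 weeks under a short photoperiod of 8 h of light (SP12wk) and 4 after 28 weeks under it (SP28wk). Experiment 2 held 12 adult females after 8 weeks of short photoperiod, of which 6 received the vehicle, DMSO with saline (SAL), and 6 received 18 µg of ovine prolactin per injection on 3 days (PRL). Each library was made from kidney tissue of 1 animal and was read as nanopore cDNA. Per the methods, the frozen kidneys were cut, and a part of each was sectioned for histology. The experiments differed in sex, flow cell and depth, which cannot be told apart, so that their levels are given side by side and not tested.

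Prostaglandins are short-lived lipid messengers made from arachidonic acid. The cyclooxygenases Ptgs1 and Ptgs2 turn it into prostaglandin H2, and terminal synthases then make the D, E and F forms. In the kidney, prostaglandin E2 is known to restrain salt and water transport along the tubule and to act on renal blood flow. Hpgd and Ptgr1 inactivate prostaglandins in successive steps. Ptgds is a lipocalin, a small secreted carrier protein, as well as an enzyme, and is best known from the coverings of the brain and from the male genital tract.

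The levels are given in CPM, the reads of a gene scaled to a library of 1000000 reads, where each gene was counted on its transcript with most reads. The library totals were between 15688 and 57585 reads in experiment 1 and between 174053 and 756523 in experiment 2. A single read was therefore worth 17.4 to 63.7 CPM in males and 1.32 to 5.75 CPM in females. Where a gene had no read, the limit was 3 reads, or 52.1 to 191 CPM in males and 3.97 to 17.2 CPM in females. These limits and the counting intervals below cover counting error only. They do not cover hamster reads that failed to map to the mouse genome, a loss that was not tested. SP28wk was the most deeply read group of males, with 44.3% of the reads of experiment 1. In mixed kidney tissue, fewer cells of a type and less RNA per cell cannot be told apart. Of 14 kidney tubule markers, 11 had a read in males and 12 in females. Cubn and Kap were at 0 in both experiments, and Aqp2 was at 0 in males.

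Ptgds was read in all 4 SP28wk kidneys, in 1 of 4 SP12wk kidneys and in none of 4 LP kidneys. The reads lay on transcript NM_008963.3, and the other 2 listed transcripts of the gene carried the same counts. The 4 SP28wk libraries had 3, 2, 5 and 7 reads, which gave 118.6, 83.0, 142.8 and 121.6 CPM. The only read in SP12wk was in replicate 4 and gave 28.3 CPM. The SP28wk level was 116 ± 24.8 CPM (SD, n = 4), and each SP28wk value as read was above those of LP and SP12wk. The limit of 3 reads was 117 to 168 CPM per library in LP and 84.8 to 191 CPM in SP12wk. These limits lie within or above the SP28wk values, so that a single library with no read does not show a lower level. Pooled over its 4 libraries, SP28wk had 120 CPM (95% counting interval 69.7 to 192).

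Since Ptgds was chosen for this pattern, these values are a description and were not tested. Of the 5086 genes of experiment 1 with a read in at least 4 of 12 libraries, 16 (0.315%) had every SP28wk library above every LP and SP12wk library. Ptgds had 18 reads in males, and 94.4% of them were in SP28wk. The pooled Ptgds level in SP28wk was 3.31 times the limit of 3 reads over the whole LP group. This ratio leaves out the counting error of the SP28wk reads and is no lower bound. The counting interval was 69.7 to 192 CPM in SP28wk and 0 to 44.5 CPM in LP. The pooled Ptgds level in SP28wk was 11.4 times that in SP12wk, where the value was a single read. At the pooled SP28wk level, 9.92 reads would have fallen in LP and 11.4 in SP12wk. The counting intervals and these read numbers describe the values for which Ptgds was chosen and test nothing. They leave out the spread between animals. LP and SP12wk, with 0 and 1 read, could not be told apart at this depth.

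**Figure D1:**
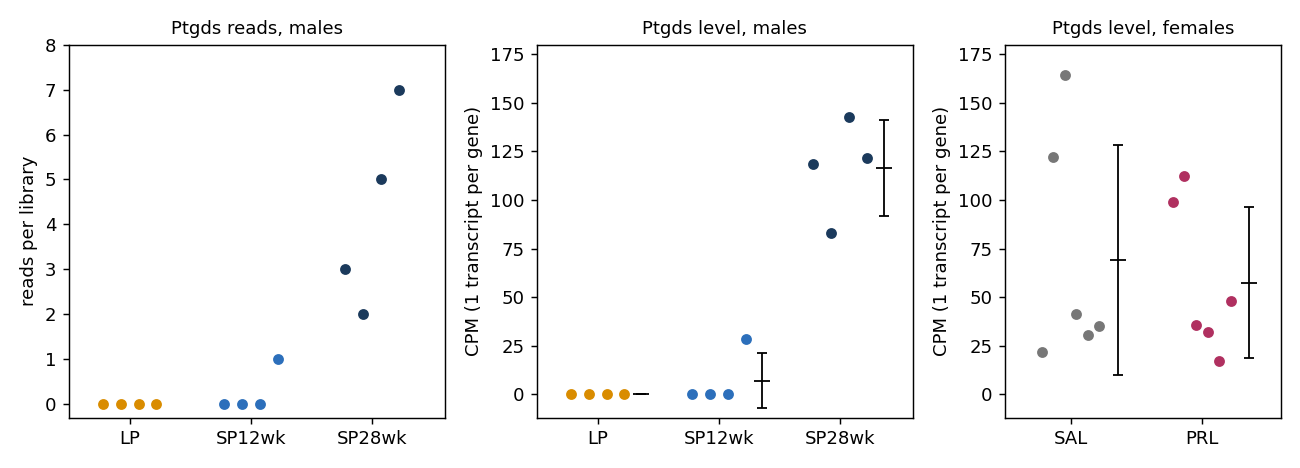
Ptgds in each kidney, as reads per library (left, males) and as CPM (middle, males, and right, females). Points are libraries, and the black dash and bar are the group mean and SD. The 4 SP28wk libraries lie between 83.0 and 142.8 CPM, above all LP and SP12wk libraries, and the SAL and PRL libraries overlap.

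In females, Ptgds was read in all 12 kidneys. The 6 SAL levels were between 21.6 and 164.4 CPM with a median of 38.3. The 6 PRL levels were between 17.2 and 112.4 CPM with a median of 41.9. In each group a pair of kidneys stood above the rest, SAL 2 and 3 at 122.3 and 164.4 CPM and PRL 1 and 2 at 98.8 and 112.4 CPM. The highest SAL level was 7.60 times the lowest, and in PRL this ratio was 6.52. In SP28wk males the same ratio was 1.72, over 4 libraries with 2 to 7 reads that were chosen for their level. The ratios of males and females cannot be compared, since the numbers of libraries and of reads differed.

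The mean Ptgds level was 69.2 ± 59.3 CPM in SAL and 57.4 ± 38.8 CPM in PRL (SD, n = 6 each). The log2 fold change of PRL against SAL was -0.04 ± 0.38 (SE), with an adjusted p of 0.999 (edgeR's quasi-likelihood test, Benjamini-Hochberg). The PRL mean was lower by a difference of -11.8 CPM, and the interval of the difference was -76 to 50.5 CPM (two-sided exact permutation test over 924 splits, p = 0.680). The sign of this small fold change turned when any of SAL 2, SAL 3, PRL 3, PRL 4 or PRL 5 was left out (-0.38 to 0.28 with each library left out in turn).

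Hpgds, the other prostaglandin D synthase, known from mast cells and other blood-derived cells, was hardly read. It had no row in males. In females it had 2.53 reads in all, in PRL 1 and PRL 3, and none in SAL, which is within the limit set by 3 reads.

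The prostaglandin E synthases showed no change that passed the test. Ptges3, the cytosolic synthase that is also the Hsp90 co-chaperone p23, was the member with most reads in males and the only member read in every male kidney. Ptges3 reads were 4, 6, 4 and 8 in LP, 6, 6, 5 and 6 in SP12wk and 8, 6, 5 and 5 in SP28wk. The Ptges3 level was 264 ± 70.6 CPM in LP, 262 ± 88.4 in SP12wk and 199 ± 103 in SP28wk (SD, n = 4 each), and the 3 groups overlapped. Its log2 fold changes were 0.10 ± 0.59 for SP12wk against LP, -0.28 ± 0.58 for SP28wk against SP12wk and -0.19 ± 0.58 for SP28wk against LP, with adjusted p of 1, 0.980 and 0.955 (edgeR).

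In females, Ptges3 ranged from 63.9 to 140.9 CPM in SAL (median 80.7) and from 38.3 to 87.9 CPM in PRL (median 64.8). The Ptges3 means were 89.2 ± 27.6 and 63.5 ± 18.9 CPM, a log2 fold change of -0.57 ± 0.26 that did not pass the test (edgeR adjusted p = 0.996). The SAL and PRL libraries of Ptges3 overlapped.

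Ptges2, a membrane-associated synthase, had a single read in males, in SP28wk 4. In females its level was 15.9 ± 7.39 CPM in SAL (8.11 to 27.4) and 8.77 ± 5.41 CPM in PRL (0 to 14.5), from 33 and 24 reads. The log2 fold change of Ptges2 was -0.67 ± 0.45. Ptges, the inducible microsomal synthase, had no row in males. In females SAL had 10 of its reads and PRL 15, and 4 of the 12 libraries had none. Its level was 5.18 ± 4.61 CPM (SAL) and 6.74 ± 7.73 CPM (PRL), with a log2 fold change of 0.40 ± 0.71. Most Ptges levels lay within the limit of 3 reads.

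**Figure D2:**
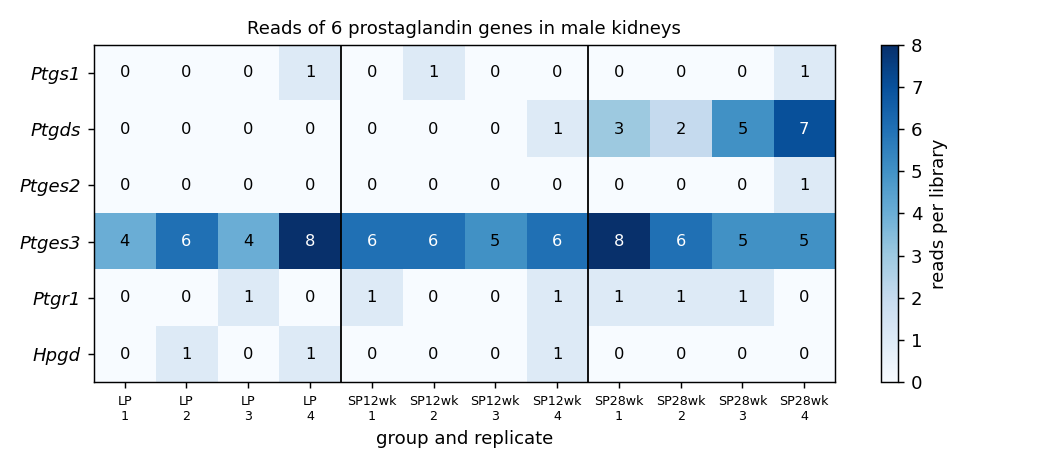
Reads of the 6 listed members in each male kidney. Rows are genes, columns are libraries by group and replicate, and the number in a cell is the read count. Ptges3 has 4 to 8 reads in every library, whereas 17 of the 18 Ptgds reads stand in SP28wk.

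The cyclooxygenases were close to the limit of detection. Ptgs1, the constitutive form, had 3 reads in males, 1 in each group. In females SAL held 6 of its reads and PRL 15, of which 10 were in PRL 2. The Ptgs1 level was 2.75 ± 2.00 CPM (SAL) and 4.56 ± 5.31 CPM (PRL), and the log2 fold change was 0.98 ± 0.72. Without PRL 2 it was 0.076. Ptgs2, the inducible form, had no row in males. In females it had 1 read in SAL and 3 in PRL. A difference in either gene was not detectable at this depth.

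Ptger3, the EP3 receptor for prostaglandin E2, had no row in males and 1 read in females, in PRL 1. No statement on its level can be made beyond the limit of 3 reads.

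The genes of prostaglandin breakdown were read well in females and poorly in males. Hpgd, the 15-hydroxyprostaglandin dehydrogenase that carries out the first step, had 3 reads in males, with 2, 1 and 0 in LP, SP12wk and SP28wk. In females its level ranged from 3.20 to 127.9 CPM in SAL (median 56.7) and from 8.51 to 103.4 CPM in PRL (median 80.8). The lowest Hpgd libraries were SAL 6, with 1 read, and PRL 6, with 3 reads. The highest SAL level of Hpgd was 39.9 times the lowest, the widest range of the members read in every female kidney. The means were 59.1 ± 46.8 CPM in SAL and 71.5 ± 34.0 CPM in PRL, with a log2 fold change of 0.25 ± 0.38. Without SAL 6 this value was -0.0052.

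Ptgr1, a reductase of the keto-prostaglandins that Hpgd makes, had 6 reads in males, with 1, 2 and 3 in LP, SP12wk and SP28wk, and never more than 1 in a library. In females its level ranged from 25.6 to 73.1 CPM in SAL (median 33.5) and from 23.7 to 76.7 CPM in PRL (median 45.4). The means were 40.0 ± 17.8 and 46.7 ± 22.4 CPM, with a log2 fold change of 0.31 ± 0.30. The SAL and PRL libraries overlapped for Hpgd and for Ptgr1.

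**Figure D3:**
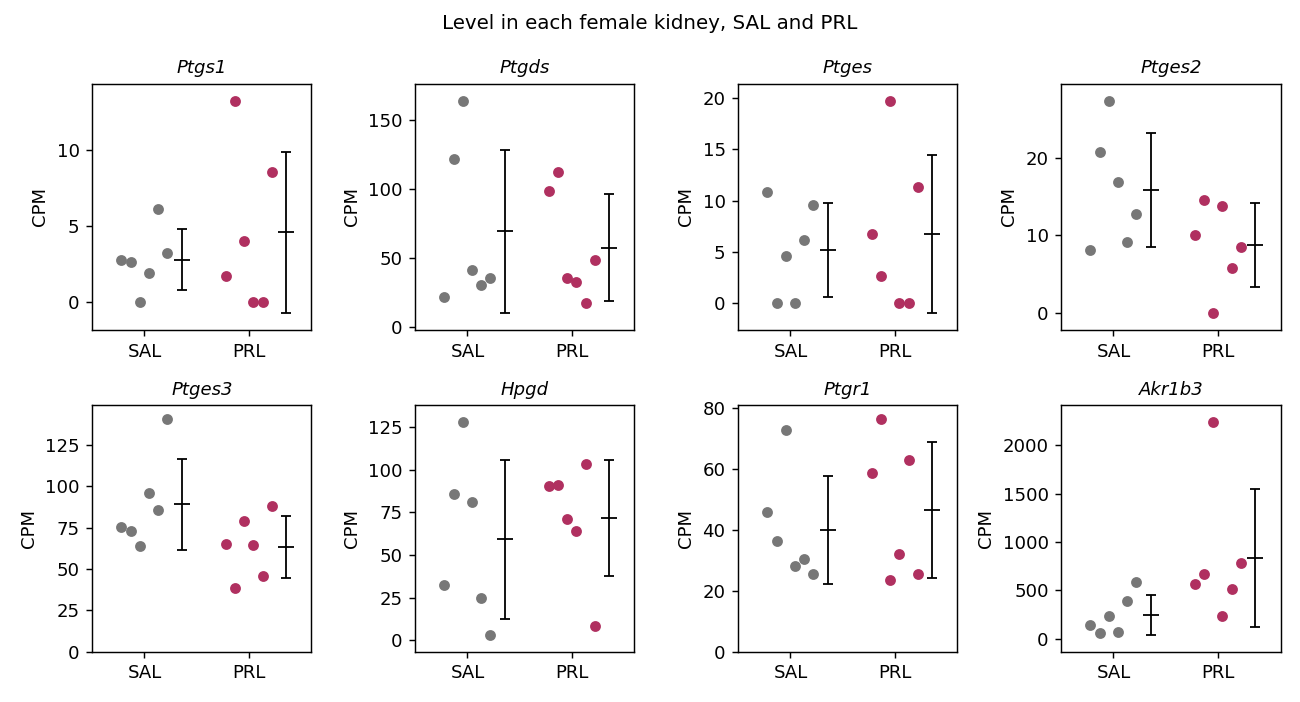
CPM of 7 members and Akr1b3 in each female kidney. Grey points are SAL, red points are PRL, and the black dash and bar are the group mean and SD. The axes differ between genes. SAL and PRL overlap in each of the 8 genes.

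Across the comparisons no member that was tested passed an adjusted p of 0.05. In PRL against SAL, 7 members were tested and 0 were called, where 0% of the 10696 genes tested were called (edgeR). At an unadjusted p under 0.05, 1 of the 7 (Ptges3) stood beside 4.88% of all genes. The median log2 fold change was 0.25 over the 7 members and 0.03 over all genes, and 4 of the 7 were above 0. DESeq2 and limma-voom also called 0 of the 7 members. The SAL and PRL libraries overlapped in all 7, and 0.14% of all genes had groups that did not overlap. Hpgds, Ptgs2 and Ptger3 had too few reads for the test. In males, Ptges3 and Ptgr1 were tested in each comparison and 0 of them were called at an adjusted or an unadjusted p under 0.05. For SP12wk against LP, 0.0197% of all genes tested were called. The share was 0.138% for SP28wk against SP12wk and 0.216% for SP28wk against LP. At an unadjusted p these shares were 7.26%, 6.1% and 8.57%. The median log2 fold change of all genes was 0.16 in SP28wk against SP12wk and 0.18 in SP28wk against LP. With DESeq2 these medians were -0.01 and -0.02 and with limma-voom 0.04 and 0.09. The cause of the shift was not tested.

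**Figure D4:**
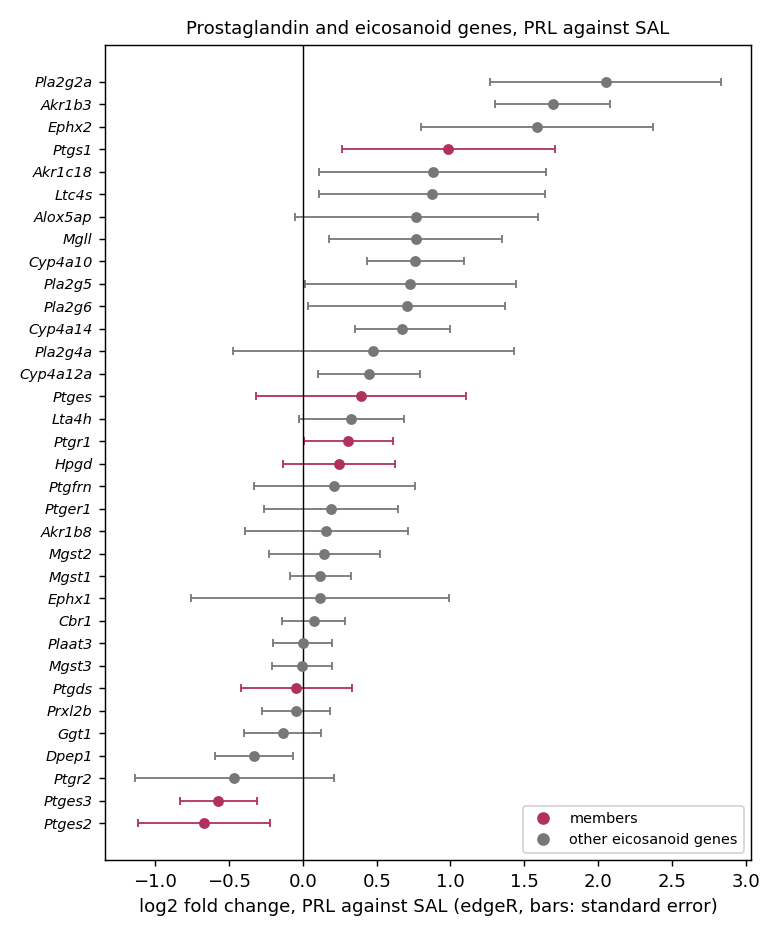
Log2 fold change of PRL against SAL for 7 members (red) and 27 other eicosanoid genes (grey), ordered by size, with the standard error of the edgeR fit as bars. Ptges2 and Ptges3 are the lowest, at -0.67 and -0.57, and none of the genes passed the adjusted threshold.

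Other genes of eicosanoid metabolism were taken from a list of 48, which holds phospholipases, further synthases and reductases, receptors, transporters and enzymes of leukotriene and epoxide metabolism. In males 21 of the 48 had a read and 10 were tested. For SP12wk against LP 0 were called, and 1 was called in each comparison of SP28wk, Akr1b3 both times, where 0.138% (against SP12wk) and 0.216% (against LP) of all genes were called. The median of the 10 log2 fold changes was 0.43 for SP12wk against LP, 0.46 for SP28wk against SP12wk and 1.08 for SP28wk against LP, beside -0.0013, 0.16 and 0.18 over all genes. Akr1b3, among the 10, had 0 reads in SP12wk and 1 in LP, so that its fold changes are poorly set. In females 40 had a read, 27 were tested and 0 were called. Of these 27, Akr1b3, Pla2g2a, Cyp4a10 and Cyp4a14 had an unadjusted p under 0.05, beside 4.88% of all genes, and the median was 0.33.

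Akr1b3 encodes aldose reductase, which makes sorbitol in the kidney medulla and can also act as a prostaglandin F synthase. Akr1b3 had 1 read in LP, in replicate 4, none in SP12wk, and 0, 7, 15 and 7 reads in the SP28wk libraries. The SP28wk levels were 0, 290, 428 and 122 CPM, so that SP28wk 1 lay with the LP and SP12wk libraries. The pooled Akr1b3 level in SP28wk was 6.50 times the limit of 3 reads over the SP12wk group. This ratio leaves out the counting error of the SP28wk reads and is no lower bound. The counting interval was 137 to 293 CPM in SP28wk and 0 to 38.6 CPM in SP12wk. The pooled SP28wk level was 16.9 times that of LP, with a counting interval of 2.81 to 691.

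Akr1b3 had a read in 4 of the 12 male libraries, SP28wk 2, 3 and 4 and LP 4, the fewest the filter allowed. It was therefore tested through the group in which it was high. Its edgeR adjusted p, 0.00388 against SP12wk and 0.0219 against LP, is thus no independent support. Without a filter on low counts the adjusted p was 0.00448 against SP12wk and 0.0214 against LP, and with limma-voom it was 0.0318 and 0.0393. With DESeq2 the log2 fold changes were 4.73 and 4.00 and with counts summed over transcripts 5.58 and 3.89, beside 5.64 and 3.96 in edgeR, and neither passed (adjusted p = 1.00 and 0.996 with DESeq2, 0.673 and 0.654 with summed counts). The call against LP was also lost without LP 1, 2 or 3 (adjusted p = 0.117, 0.139 and 0.210), and that against SP12wk without SP12wk 4 (adjusted p = 0.0572). Without LP 4, SP28wk 2, SP28wk 3 or SP28wk 4 the gene had too few libraries with a read for the test. A second listed gene, Gm6644, carried nearly the same counts as Akr1b3, with 0, 8, 15 and 7 reads in SP28wk, so that the assignment of these reads to Akr1b3 is uncertain. In females Gm6644 had 489 reads in SAL and 1847 in PRL, beside 482 and 1830 of Akr1b3, so that the assignment is uncertain there too.

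In females, Akr1b3 ranged from 65.0 to 589 CPM in SAL and from 239 to 2234 CPM in PRL, and the groups overlapped. The means were 250 ± 206 and 835 ± 709 CPM (SD, n = 6 each). The log2 fold change was 1.69 ± 0.39, with an adjusted p of 0.165 (edgeR), which did not pass. It passed without a filter on low counts (adjusted p = 1.44e-10), with a replicate block (2.85e-09), without SAL 6 (0.00112) and without PRL 4 (0.0358). It did not pass with DESeq2 (0.999), limma-voom (0.184), summed counts or the stricter filter (0.373).

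**Figure D5:**
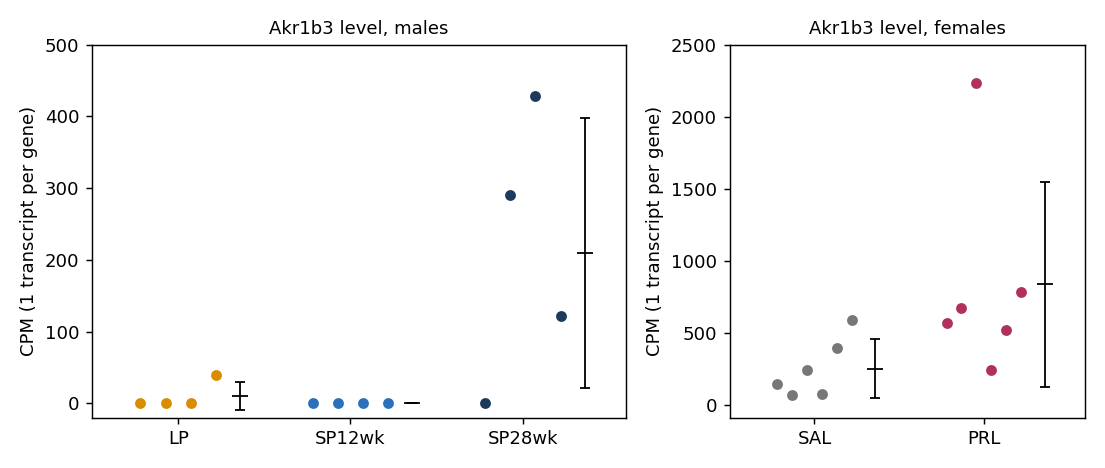
CPM of Akr1b3 in each male (left) and female (right) kidney. Points are libraries, and the black dash and bar are the group mean and SD. In males, 3 of the 4 SP28wk libraries lie between 122 and 428 CPM and the fourth is at 0. In females, PRL 3 at 2234 CPM is the highest library.

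The eicosanoid genes with most reads besides Akr1b3 were Cbr1, Mgst1, Plaat3 and Mgst3 in both experiments. Cbr1, a carbonyl reductase that can act on prostaglandin E2, had 9, 21 and 50 reads in LP, SP12wk and SP28wk. Cbr1 levels were 0, 0, 111 and 271.9 CPM in LP and 118.6, 248.9, 542.8 and 382.0 CPM in SP28wk, which overlapped. Its log2 fold change of SP28wk against LP was 1.96 ± 0.62 and did not pass (edgeR adjusted p = 0.190). Without LP 4, which held 7 of the 9 LP reads, it was 3.52 with an adjusted p of 0.0073 (edgeR). That fit left out most LP reads of Cbr1, so that its p is no independent support. In it 56 of 4888 genes were called, beside 11 of 5086 with all libraries. In females Cbr1 was at 717 ± 205 CPM in SAL and 794 ± 274 CPM in PRL. The glutathione transferase Mgst1 was at 652 ± 169 and 739 ± 215 CPM, the phospholipase Plaat3 at 273 ± 48.2 and 286 ± 38.9 CPM and Mgst3 at 249 ± 43.9 and 258 ± 44.1 CPM in SAL and PRL. Ggt1, an enzyme of glutathione and leukotriene breakdown, was at 260 ± 101 CPM in SAL and 244 ± 117 CPM in PRL.

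Because Ptgds is a lipocalin, 12 other lipocalin genes were read beside it. Apom, the carrier of sphingosine 1-phosphate, had 15, 30 and 26 reads in LP, SP12wk and SP28wk, or 186 ± 62.3, 254 ± 258 and 177 ± 72.5 CPM. C8g, a chain of complement C8, had 0, 4 and 1 reads, Rbp4, the carrier of retinol, had 0, 1 and 2 reads, and Ambp had 1 read in SP12wk. In females Apom was at 233 ± 70.7 and 225 ± 73.6 CPM, C8g at 63.9 ± 26.4 and 62.7 ± 27.1 CPM and Rbp4 at 18.8 ± 11.2 and 14.1 ± 8.88 CPM in SAL and PRL. Ambp had 6 reads and Lcn8 had 3 in females. Of the lipocalins, 2 were tested in each male comparison and 3 in females, and 0 were called.

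Markers of the tissues in which Ptgds is best known were listed beside its reads. Of 10 epididymis markers, 0 had a read in any male library. In females, 3 of the 10 had a read, and their summed level was at most 10.8 CPM. Of 8 testis and sperm markers, Tnp1 alone had reads in males, 2 in SP28wk 1. Of 15 markers of the brain and its coverings, 5 had a read in males, among them Ttr, Tuba1a and Enpp2, whereas Snap25, Mbp, Gfap, Syt1 and Mobp were at 0. The summed level of these 15 was 785 to 1505 CPM in LP, 572 to 1406 in SP12wk and 622 to 1389 in SP28wk.

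The genes whose levels over the 12 male libraries were most like that of Ptgds were Gm20498 (Pearson r = 0.98), Sdhaf3 (0.97), Coasy and Hoxa3 (0.94 each), Alkbh7 (0.92), Asrgl1, Cmc2 and Slc25a14 (0.91 each), Gm4371 (0.90) and Trim2 (0.89), on log2(CPM + 41.2) among 5085 genes. They had 4 to 17 reads each, most of them in SP28wk, the most deeply read group. Of the 10 genes, 8 had no read in LP or SP12wk, and Gm20498 had 1 in SP12wk. Those 8 passed the filter of 4 libraries through SP28wk alone, the group for which Ptgds was chosen. Their correlations follow from that choice and are no independent support. Trim2, with most reads of these, had 1 read in LP, 1 in SP12wk and 15 in SP28wk. Of the members, Ptges3 had r = -0.52 and Ptgr1 had r = 0.32 with Ptgds.

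Over the 12 female libraries, on log2(CPM + 2.95) and in a list added afterwards, the genes most like Ptgds were Erp44 (r = 0.90, 222 reads) and Psmd11 (r = 0.86, 147 reads). Among the members, r with Ptgds was 0.56 for Ptges2, 0.43 for Ptgr1, 0.37 for Hpgd, 0.13 for Ptgs1, -0.09 for Ptges and -0.25 for Ptges3. These correlations describe 12 libraries of 1 flow cell that differed in depth, from 174053 to 756523 reads, and they were not tested.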

How the data were processed

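Per the labels and the methods of the study, nanopore cDNA reads were basecalled with Guppy, trimmed with Porechop, filtered with Filtlong and mapped to the mouse genome (Minimap2). Hamster reads thus carry mouse RefSeq names. The methods name a direct cDNA kit and the labels a PCR-cDNA kit. The processing notes also name Salmon. The authors deposited estimated counts per transcript, not normalized, in 36662 rows (experiment 1) and 71590 rows (experiment 2). A read could be listed on several transcripts. No genome or sequence tables were used here, so that no sequences or coordinates are given.

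The transcript with the highest total was taken for each gene, and CPM is its count divided by the total of the library so built. In R 4.3.3, rounded counts were fitted with edgeR 4.0.16 (quasi-likelihood, TMM), 1 model per experiment, on genes counted in 4 or more of 12 (experiment 1) or 6 or more of 12 libraries (experiment 2), with a Benjamini-Hochberg threshold of 0.05. The standard error is the size of the log2 fold change divided by the square root of F. Counting intervals are exact at 95%. The script was tested on simulated data. Pairs of libraries of a group differed by more than counting noise (chi-square over degrees of freedom 1.89 to 10.1), so that no library was a copy. Replicates are animals.

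The members and gene lists were chosen with earlier results of these data known. Named were the members, the 10 genes most correlated with Ptgds in males, the 5 genes with most counts and those past the threshold in the eicosanoid and lipocalin lists, and markers needed to count those at 0. Pla2g2a, Cyp4a10, Cyp4a14 and Gm6644, and Erp44 and Psmd11 in females, were added after their values were seen. The lists for pituitary, adrenal gland, adipose tissue, blood and stroma had 1 of 8, 1 of 8, 5 of 8, 7 of 9 and 12 of 13 genes with a read in males. Alternatives were counts summed over transcripts, DESeq2 1.42.0, limma-voom (limma 3.58.1), no filter, a stricter filter (8 of 12 and 12 of 12 libraries), a replicate block and each library left out.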

Additional observations from a re-analysis of the deposited data

Results flagged for a closer look

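A library that stood far from the others of its group was found in 11 of the 36 groups tested (Dixon's test). In 10 of them the value came from 1 read in a group otherwise at 0, which the test always flags. The chance rate of about 1 in 20 does not hold for such counts, so that the number of flags shows no excess. These were Ptgds in SP12wk 4 (28.26 CPM), Ptges2 in SP28wk 4 (17.37 CPM), Ptgs1 in LP 4 (38.84 CPM), SP12wk 2 (63.75 CPM) and SP28wk 4 (17.37 CPM), Hpgd in SP12wk 4 (28.26 CPM), Ptgr1 in LP 3 (55.49 CPM), Akr1b3 in LP 4 (38.84 CPM), Ptgs2 in SAL 5 (3.06 CPM) and Ptger3 in PRL 1 (1.675 CPM). The other was Akr1b3 in PRL 3, at 2234 CPM from 565 reads. Ptgds itself had no such library in SP28wk, SAL or PRL.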

How the results depend on the processing

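No member tested passed the threshold in any of the 4 comparisons under any alternative run. Ptgds was left out of both SP28wk comparisons. Akr1b3 was the eicosanoid gene past the threshold in SP28wk against SP12wk (1 gene) and SP28wk against LP (1 gene). That count was 0 in both with summed transcripts, with DESeq2 and with the stricter filter, under which Akr1b3 was not tested. It was 0 to 1 with a library left out, where the 1 gene against LP was Cbr1 without LP 4, and 0 against LP with the replicate block. In PRL against SAL the count of 0 was 1 without a filter and with the replicate block, and 0 to 1 with a library left out. Replicate numbers did not pair the samples, since same-numbered libraries had correlations of -0.10 to 0.21 in experiment 1 and -0.18 to 0.24 in experiment 2. Akr1b3 with the replicate block had an adjusted p of 0.0882 against LP, 0.0370 against SP12wk and 2.85e-09 in PRL against SAL (edgeR).

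Over all genes, the 1 call of SP12wk against LP was 0 under each alternative other than leaving out a library, which gave 0 to 9. The 7 calls of SP28wk against SP12wk became 0 (summed), 2 (DESeq2) and 2 (stricter filter), and 2 to 11 with a library left out. The 11 calls of SP28wk against LP became 0 (summed), 2 (DESeq2), 30 (limma-voom) and 5 (stricter filter), and 8 to 56 with a library left out. The 0 calls of PRL against SAL became 1 (summed), 92 (no filter) and 52 (replicate block), and 0 to 44 with a library left out. The causes were not tested.

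The log2 fold change of Ptgds in PRL against SAL was 0.085 with limma-voom and -0.38 to 0.28 with a library left out. With a library left out, Hpgd ranged from -0.0052 to 0.47 and Ptges from -0.048 to 0.81 in PRL against SAL, Ptges3 from -0.033 to 0.31 in SP12wk against LP and from -0.44 to 0.062 in SP28wk against LP, and Ptgr1 from -0.21 to 0.71 in SP28wk against SP12wk. These changes of sign were all in values that did not pass the test. The Ptgds level in SP28wk was 150 CPM with summed transcripts. Its 3 listed transcripts carry the same counts, so that this sum may count each read 3 times.

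Each Ptgds level in males rests on at most 7 reads.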
